A study of Mus musculus with 15 samples.

Results

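The matrix around liver cells is cut, shielded and crosslinked by a few families of secreted and membrane-bound proteins, and 53 genes of these families were followed among the 56953 genes of the deposited tables. The members were chosen by name: 20 matrix metalloproteinases (Mmp genes, Mmp12 left out), 4 tissue inhibitors of metalloproteinases (Timp), 19 Adamts proteases, 5 Adamts-like proteins (Adamtsl) and 5 lysyl oxidases (Lox and Loxl1 to Loxl4). RNA from primary mouse hepatocytes was sequenced in 15 libraries of 4 groups: 4 from ΔEGFR transgenic mice given carbon tetrachloride (CCl4), 4 from ΔEGFR mice given mineral oil, 3 from wild-type (WT) mice given CCl4 and 4 from WT mice given mineral oil. CCl4 is a hepatotoxin whose repeated use produces liver fibrosis in rodents, and mineral oil is its vehicle. The labels give no age, strain, dose, treatment time or animal number, and do not describe the transgene, its promoter or any founder line, so the transgene itself was not checked here. Whether the libraries of a group came from separate animals is not labelled, so a p-value here speaks only of the spread among them.

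Fibrillar collagen is opened by collagenases such as Mmp13 and Mmp8, and the fragments are cut further by the gelatinases Mmp2 and Mmp9. Mmp14 and Mmp15 sit in the plasma membrane, and Mmp14 together with a bound Timp2 activates the Mmp2 precursor. Timps block the active site of metalloproteinases. Adamts proteases trim procollagens, proteoglycans and von Willebrand factor, Adamtsl proteins are related matrix proteins without a protease domain, and lysyl oxidases crosslink collagen and elastin. In fibrotic liver, activated stellate cells and portal fibroblasts are known sources of Timp1, Mmp2 and lysyl oxidases, macrophages of Mmp13 in the mouse, and neutrophils of Mmp8 and Mmp9.

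Of the 9 members called in any comparison below, 6 had a promoter entry in the RefSeq table. The promoters of the 4 with the highest mean TPM in WT CCl4 libraries are shown. They are the inhibitors Timp1 and Timp2 and the collagenases Mmp13 and Mmp14. The sequences are the 250 bases before the annotated start (RefSeq, GRCm38.p6), printed 5′ to 3′ along the gene's strand, and capitals mark matches on either strand to 3 motifs. The AP-1 motif was searched as TGANTCA. The TATA box was searched as TATAAA. The Sp1 motif was searched as GGGCGG.
Mmp13, chr9:7272264-7272513, plus strand: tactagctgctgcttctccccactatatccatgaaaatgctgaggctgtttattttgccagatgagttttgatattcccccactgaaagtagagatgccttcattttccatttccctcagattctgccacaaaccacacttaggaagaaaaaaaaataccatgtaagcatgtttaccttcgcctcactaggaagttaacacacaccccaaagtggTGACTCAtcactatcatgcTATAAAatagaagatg
Timp1, chrX:20869916-20870165, plus strand: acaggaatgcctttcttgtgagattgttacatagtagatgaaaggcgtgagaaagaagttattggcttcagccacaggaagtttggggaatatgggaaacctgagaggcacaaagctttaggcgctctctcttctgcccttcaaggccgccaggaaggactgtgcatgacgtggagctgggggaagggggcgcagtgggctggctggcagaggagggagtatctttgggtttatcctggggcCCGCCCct
Timp2, chr11:118355412-118355661, minus strand: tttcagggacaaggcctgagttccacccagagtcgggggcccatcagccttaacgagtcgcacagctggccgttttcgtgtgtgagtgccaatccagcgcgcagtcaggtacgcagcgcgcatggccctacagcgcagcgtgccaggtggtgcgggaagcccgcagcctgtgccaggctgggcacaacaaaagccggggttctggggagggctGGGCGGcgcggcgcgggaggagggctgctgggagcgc
Mmp14, chr14:54431348-54431597, plus strand: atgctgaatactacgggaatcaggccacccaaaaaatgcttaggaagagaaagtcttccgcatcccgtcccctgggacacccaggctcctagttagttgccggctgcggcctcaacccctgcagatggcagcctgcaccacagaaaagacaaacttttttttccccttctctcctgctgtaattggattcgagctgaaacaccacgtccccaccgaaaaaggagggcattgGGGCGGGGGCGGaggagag
The Mmp13 promoter held both the AP-1 motif, starting 35 bases before the annotated start, and the TATA box, starting 16 bases before it. Among the 32851 promoters searched over this length, 6.75% held the AP-1 motif and 12.4% the TATA box. The Timp1, Timp2 and Mmp14 promoters held the Sp1 motif and neither of the others, and 32.7% of all promoters held it. The Mmp14 promoter held 2 copies, 1 directly after the other.

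Libraries held 51732147 to 155388787 counts, in separate ranges of 51732147 to 61888332 and 96174050 to 155388787 counts. The lower range held 3 WT mineral oil, 2 WT CCl4 and 1 ΔEGFR CCl4 libraries, and no ΔEGFR mineral oil library. All 11 hepatocyte markers that could be matched were above 0 in every library, and their summed level was 56771.0 to 104288.5 TPM under CCl4 and 44615.8 to 104989.8 TPM under mineral oil in ΔEGFR, against 60337.8 to 104628.1 and 58891.4 to 105170.6 TPM in WT. These sums overlapped, but single hepatocyte markers were lower with CCl4. In ΔEGFR 1 of 11 was called lower by edgeR, against 2.38% of all genes, and 4 by DESeq2, against 1090 of 17975 genes. In WT 4 of 11 were called lower by edgeR, against 7.2% of all genes, and 4 by DESeq2, against 1980 of 17975 genes. The markers' median log2 fold change was -0.61 in ΔEGFR and -0.78 in WT, beside -0.02 and -0.03 for all genes. Transcripts of other liver cells were present as well. Summed over 15 macrophage markers, the level was 3274.5 to 9487.1 TPM in ΔEGFR CCl4 and 37.0 to 1427.8 TPM in ΔEGFR mineral oil libraries, against 3023.0 to 11040.8 TPM in WT CCl4 and 89.2 to 2023.1 TPM in WT mineral oil libraries. Summed over 16 stellate cell and myofibroblast markers, it was 180.9 to 626.8 TPM in ΔEGFR CCl4 and 34.1 to 200.2 TPM in ΔEGFR mineral oil libraries, against 158.8 to 447.3 TPM in WT CCl4 and 31.3 to 169.4 TPM in WT mineral oil libraries. Summed over 12 endothelial markers, it was 197.5 to 433.8 TPM in ΔEGFR CCl4 and 40.1 to 153.2 TPM in ΔEGFR mineral oil libraries, against 138.2 to 288.5 TPM in WT CCl4 and 32.8 to 421.3 TPM in WT mineral oil libraries. Macrophage sums were higher in every CCl4 library than in any oil library of the same genotype, endothelial sums were so in ΔEGFR, and stellate cell sums overlapped slightly. The part of hepatocyte or other-cell RNA in the changes below was not tested. In such bulk samples more cells of a type and more RNA per cell cannot be told apart.

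The family transcripts were dominated by a few members, and the leading set differed between oil and CCl4. Averaged over all libraries, Mmp19 stood highest at 40.3 TPM, followed by Timp2 at 34.9, Mmp14 at 34.2 and Mmp15 at 29.6 TPM. TPM, RSEM's count of transcripts scaled to a fixed total per library, is a level per transcript length, so members can be set against each other on it. The median reached 1 TPM for 24 of 53 members in ΔEGFR CCl4 and 12 in ΔEGFR mineral oil libraries, against 21 in WT CCl4 and 8 in WT mineral oil libraries. Mmp14, Mmp15 and Mmp19 together made up 41.9 to 56.9% of the members' summed TPM in ΔEGFR CCl4 and 73.8 to 88.3% in ΔEGFR mineral oil libraries. In WT they made up 37.1 to 53.5% under CCl4 and 79.6 to 90.7% in mineral oil replicates 2 to 4, while mineral oil replicate 1 stood apart at 15.7%. Timp2 held 17.9 to 26.1% of the sum in ΔEGFR CCl4 and 1.1 to 4.1% in ΔEGFR mineral oil libraries, against 10.3 to 35.0% in WT CCl4 and 1.2 to 8.2% in WT mineral oil libraries. Apart from WT mineral oil replicate 1, the oil libraries were thus mostly membrane-type Mmps and Mmp19, and Timp2 joined them under CCl4.

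**Figure D1:**
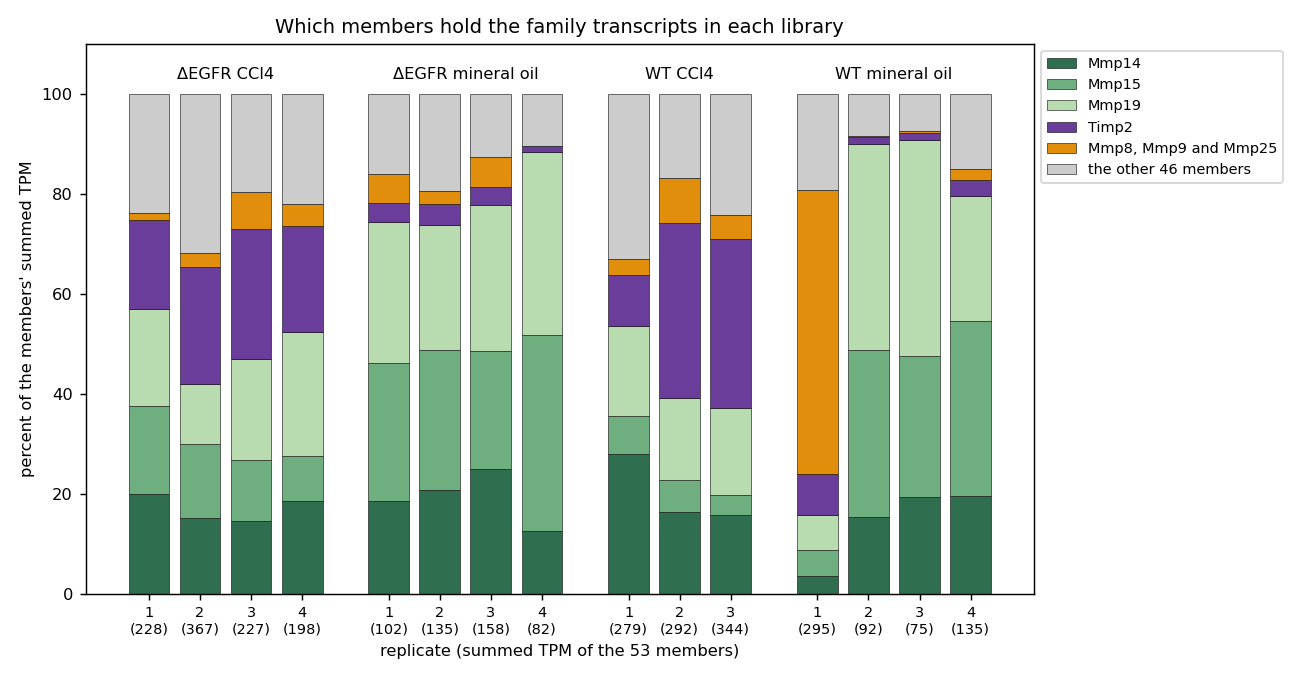
Share of each library's summed TPM over the 53 members (percent, y axis) held by Mmp14, Mmp15, Mmp19, Timp2, by Mmp8, Mmp9 and Mmp25 together and by the other 46 members, with the summed TPM in brackets under each replicate. Timp2 takes 10.3 to 35.0% of the bar in the CCl4 libraries, and Mmp8, Mmp9 and Mmp25 take 56.8% in WT mineral oil replicate 1.

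Of the 53 members, 42 had enough reads to be tested among 17975 genes. The 11 others were Adamts8, Adamts16, Adamts17, Adamts18, Adamts19, Adamts20, Mmp3, Mmp10, Mmp20, Mmp21 and Timp4, none of which exceeded 0.21 TPM in any library. Adamts18 and Mmp20 were listed at 0 in every library. Mmp3 (stromelysin-1), an enzyme known for activating other Mmps, peaked at 0.08 TPM. A member was called when its Benjamini-Hochberg adjusted p from edgeR's quasi-likelihood test was under 0.05, and fold changes are log2 of CCl4 over mineral oil or of ΔEGFR over WT.

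In WT, 9 of the 42 members tested rose with CCl4 and 0 fell, 21.4% called, against 12.5% of all 17975 genes (5.31% higher and 7.2% lower). The 9 were Timp1, Timp2, Mmp2, Mmp13, Mmp14, Mmp23, Adamtsl5, Lox and Loxl1. The median log2 fold change was 1.42 over the 42 members and -0.03 over all genes. In TMM-scaled CPM, 18 members had every WT CCl4 library above every WT mineral oil library and 0 had every one below, against 12.1% and 11.9% of all genes. The count moved when single libraries were left out. On leaving out WT mineral oil replicate 1 it was 18 of 40 tested, 17 higher and Mmp15 lower, against 14.5% and 14.2% of all genes in that fit. It was 4 without mineral oil replicate 2, 3 without mineral oil replicate 3 and 8 without mineral oil replicate 4. It was 6 without CCl4 replicate 1 and 5 without CCl4 replicate 2 or 3. No share of all genes is given for the fits without these other libraries, so their counts are a description only. DESeq2 called 15, Mmp15 again the 1 that was lower, against 20.2% of all genes. By family, 2 of 3 Timps, 4 of 16 Mmps, 1 of 5 Adamtsl genes, 2 of 5 lysyl oxidases and 0 of 13 Adamts genes were called with all libraries in edgeR's fit. For the 13 Adamts genes, 0 is near the 5.31% of all genes called higher. Without WT mineral oil replicate 1, 4 of them were called higher, beside 14.5% of all genes in that fit.

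In ΔEGFR, 1 of the 42 members, Mmp2, rose with CCl4 and 0 fell, 2.38% called, against 4.15% of all genes (1.77% higher and 2.38% lower). The median log2 fold change was 1.3 over the members and -0.02 over all genes, and 40 of 42 were positive. Every ΔEGFR CCl4 library stood above every ΔEGFR mineral oil library for 12 members and below for 0, against 12.3% and 9.32% of all genes. The members at an unadjusted p under 0.05 numbered 14 of 42, against 24.7% of all genes, and DESeq2 called 10, all higher, against 13.4% of all genes in either direction. A call in WT that is missing in ΔEGFR does not show that the genotypes differed; the test of that difference is given after the families. The TMM factors were 1.033 to 1.318 in ΔEGFR CCl4 and 0.7451 to 1.026 in ΔEGFR mineral oil libraries, against 1.039 to 1.345 in WT CCl4 and 0.784 to 0.9923 in WT mineral oil libraries. Without them, the median log2 change of all genes was 0.44 in ΔEGFR and 0.40 in WT, so TPM ratios run higher than the fitted fold changes.

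**Figure D2:**
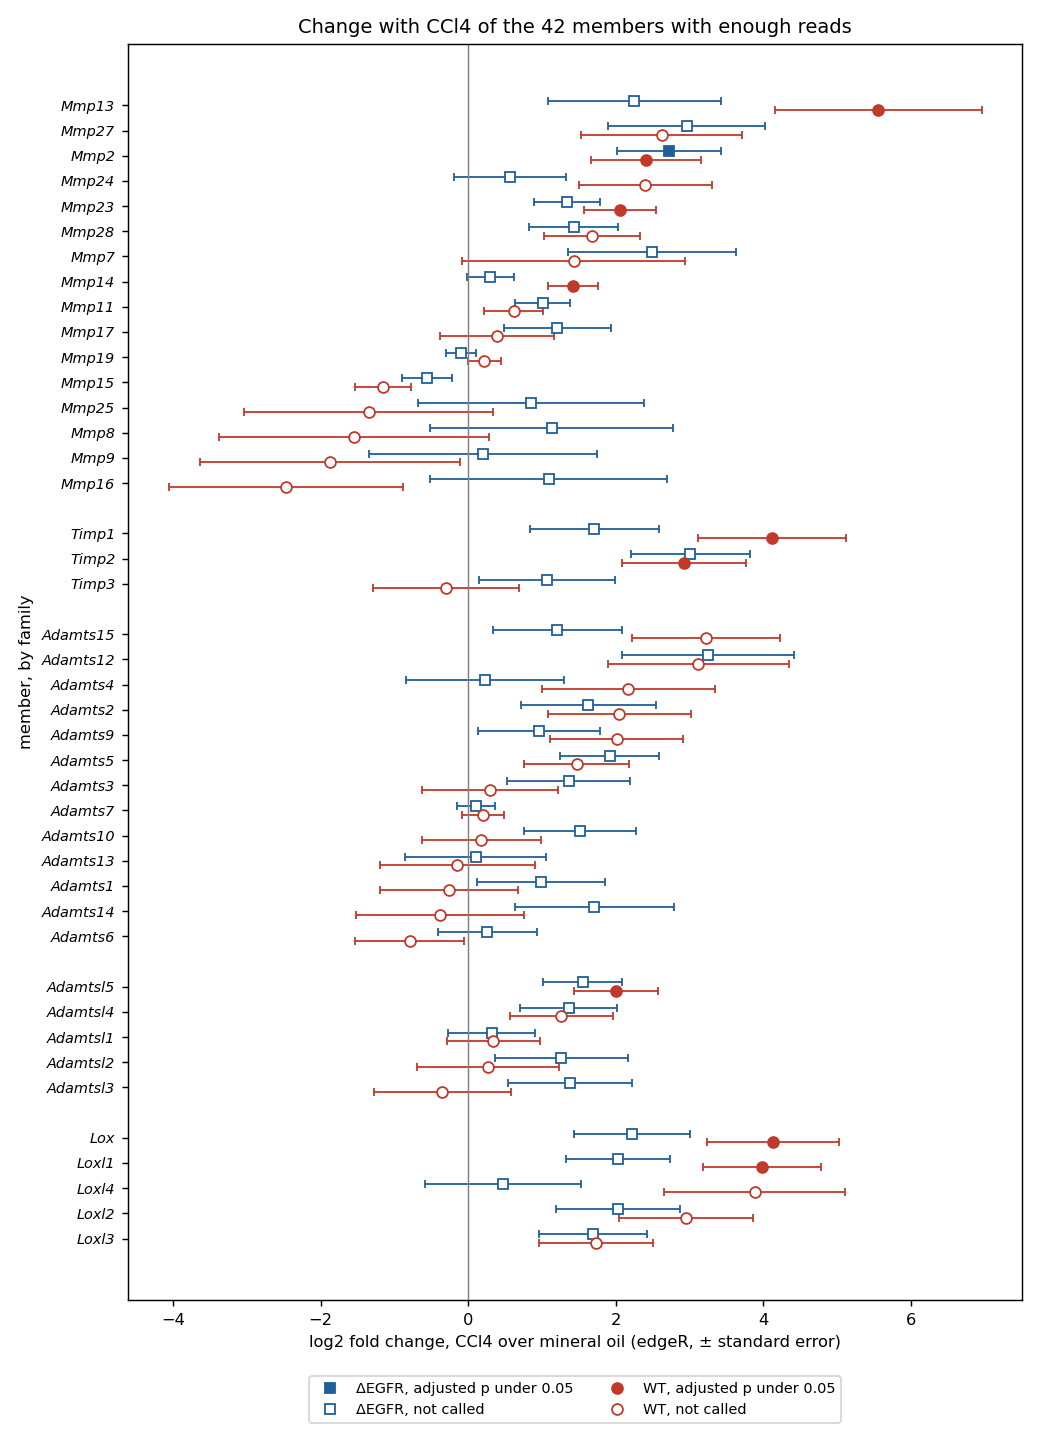
Log2 fold change of CCl4 over mineral oil (x axis, edgeR, ± standard error) for the 42 members tested, grouped by family and ordered by the change in WT; squares are ΔEGFR, circles are WT, and filled marks have an adjusted p under 0.05. All 5 lysyl oxidases lie right of 0 in both genotypes, and Mmp8, Mmp9, Mmp16 and Mmp25 lie left of 0 in WT with wide error bars.

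Timp2, which both inhibits Mmps and serves Mmp14 in activating Mmp2, was the highest inhibitor. It had 40.97, 86.27, 59.26 and 42.11 TPM in ΔEGFR CCl4 and 3.91, 5.53, 5.45 and 0.94 TPM in ΔEGFR mineral oil libraries. It had 28.80, 102.25 and 116.46 TPM in WT CCl4 and 24.23, 1.15, 1.12 and 4.34 TPM in WT mineral oil libraries. The groups did not overlap in either genotype, although WT mineral oil replicate 1 came close to the lowest WT CCl4 library. The log2 fold change was 3.01 ± 0.81 (SE; adjusted p = 0.0545) in ΔEGFR and 2.92 ± 0.84 (adjusted p = 0.0381) in WT. Without WT mineral oil replicate 1 the WT log2 fold change was 4.47 ± 0.66 (adjusted p = 0.00288). The WT call was kept in 2 of 7 fits that each left out 1 library, with adjusted p from 0.00288 to 0.119, and was lost on leaving out mineral oil replicate 2, 3 or 4, or CCl4 replicate 2 or 3, of WT.

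Timp1, the inhibitor long used as a fibrosis marker, rose with CCl4 in WT. It had 2.92, 12.78, 6.49 and 1.26 TPM in ΔEGFR CCl4 and 1.22, 0.99, 1.49 and 0.77 TPM in ΔEGFR mineral oil libraries. It had 12.33, 6.27 and 3.21 TPM in WT CCl4 and 0.47, 0.00, 0.07 and 0.74 TPM in WT mineral oil libraries, the second of which held 0 counts. The groups overlapped in ΔEGFR through 1 CCl4 library and did not overlap in WT. CCl4 over mineral oil gave a log2 fold change of 1.71 ± 0.87 (adjusted p = 0.238) in ΔEGFR and 4.12 ± 1.0 (adjusted p = 0.0199) in WT. The WT call was kept in 5 of 7 fits without 1 library, lost without WT mineral oil replicate 3 or WT CCl4 replicate 1, with adjusted p from 0.0161 to 0.0578.

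Timp3, which stays bound to the matrix and also blocks Adamts and Adam proteases, was not called. It had 7.46, 15.64, 4.17 and 3.59 TPM in ΔEGFR CCl4 and 2.85, 4.34, 1.02 and 0.86 TPM in ΔEGFR mineral oil libraries. It had 7.87, 2.99 and 5.01 TPM in WT CCl4 and 15.74, 0.79, 0.46 and 2.43 TPM in WT mineral oil libraries. WT mineral oil replicate 1 was above all WT CCl4 libraries and the other 3 below them. The log2 fold change was 1.07 ± 0.92 (adjusted p = 0.496) in ΔEGFR and -0.30 ± 0.99 (adjusted p = 0.865) in WT, and 1.66 (adjusted p = 0.115) in WT without that library. Annotated Timp3 exons share 1733 bases with Syn3 on the other strand, and whether counting used strand is not given in the sources used here.

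**Figure D3:**
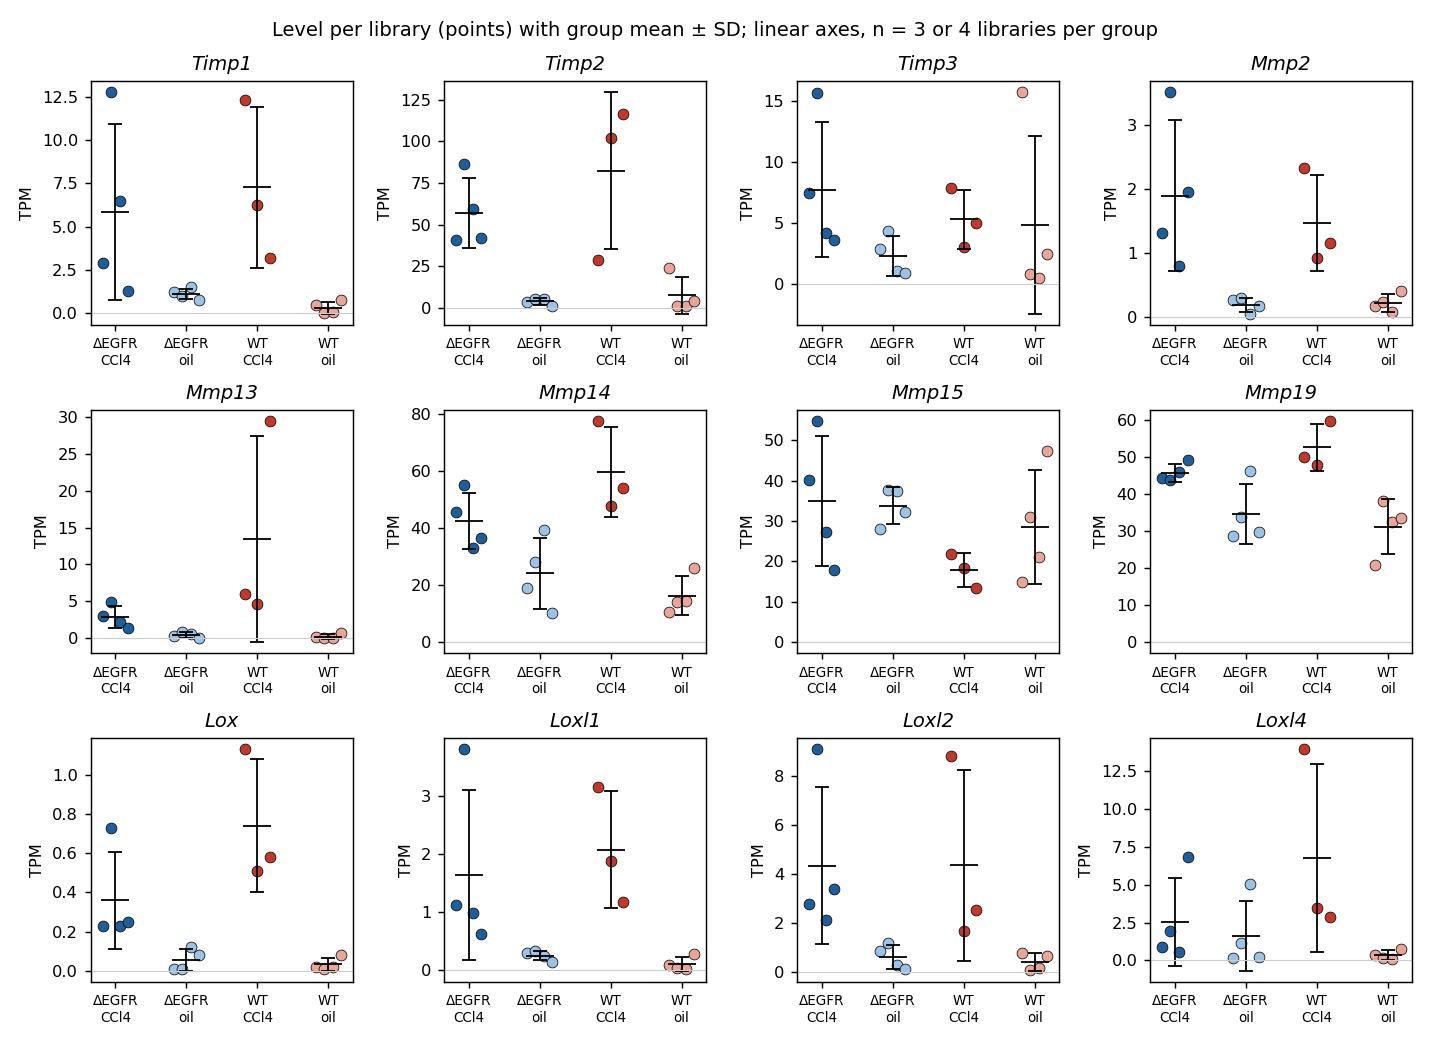
TPM in each library (points, linear y axes) with the group mean ± SD (bars) for 12 members, in 4 ΔEGFR CCl4, 4 ΔEGFR mineral oil, 3 WT CCl4 and 4 WT mineral oil libraries. Timp2 is 28.80 TPM or more in every CCl4 library. CCl4 and oil values overlap for Mmp15 in both genotypes and for Mmp19 in ΔEGFR, while the Mmp19 values in WT are apart on this scale.

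Mmp13, the main collagenase that cuts fibrillar collagen in the mouse, had the largest fitted rise of the members called in WT. It had 3.01, 4.85, 2.14 and 1.42 TPM in ΔEGFR CCl4 and 0.23, 0.87, 0.61 and 0.01 TPM in ΔEGFR mineral oil libraries. It had 6.02, 4.69 and 29.50 TPM in WT CCl4 and 0.09, 0.02, 0.00 and 0.69 TPM in WT mineral oil libraries. Neither genotype's groups overlapped, and WT CCl4 replicate 3 stood far above the other CCl4 libraries. Its log2 fold change was 2.25 ± 1.17 (adjusted p = 0.251) in ΔEGFR and 5.56 ± 1.40 (adjusted p = 0.0233) in WT. Without WT CCl4 replicate 3 or WT mineral oil replicate 2 the WT call was lost, and the adjusted p over the 7 such fits was 0.012 to 0.0998. Its promoter is the one above with the AP-1 and TATA letters.

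Mmp2, gelatinase A, was the one member called in both genotypes. It had 1.32, 3.52, 0.79 and 1.95 TPM in ΔEGFR CCl4 and 0.26, 0.29, 0.05 and 0.17 TPM in ΔEGFR mineral oil libraries. It had 2.33, 0.93 and 1.15 TPM in WT CCl4 and 0.17, 0.24, 0.07 and 0.40 TPM in WT mineral oil libraries. All CCl4 libraries were above all oil libraries in both genotypes. The log2 fold change was 2.72 ± 0.71 (adjusted p = 0.0495) in ΔEGFR and 2.41 ± 0.74 (adjusted p = 0.049) in WT. Both adjusted p-values lay just under the threshold: the ΔEGFR call was lost in each of 8 fits without 1 library (adjusted p from 0.0638 to 0.15), and the WT call was kept only without WT mineral oil replicate 4 (0.0363 to 0.178 over 7 fits).

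Mmp14, the membrane-bound collagenase and activator of Mmp2, was among the most abundant members in every group. It had 45.56, 55.29, 33.18 and 36.52 TPM in ΔEGFR CCl4 and 18.90, 27.99, 39.54 and 10.19 TPM in ΔEGFR mineral oil libraries. It had 77.82, 47.82 and 54.13 TPM in WT CCl4 and 10.51, 14.05, 14.56 and 26.21 TPM in WT mineral oil libraries. The groups overlapped in ΔEGFR, through mineral oil replicate 3, and were well apart in WT. On the log2 scale the fitted change was 0.30 ± 0.32 (adjusted p = 0.584) in ΔEGFR and 1.42 ± 0.34 (adjusted p = 0.0202) in WT. The WT call was lost when mineral oil replicate 2 or 3, or CCl4 replicate 1, was left out, with adjusted p from 0.0151 to 0.0637 over the 7 fits.

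Timp2 and Mmp14 act at the membrane in a complex, and their TPM ratio is given as a description. It was 0.899, 1.56, 1.79 and 1.15 in ΔEGFR CCl4 and 0.207, 0.198, 0.138 and 0.0922 in ΔEGFR mineral oil libraries. It was 0.37, 2.14 and 2.15 in WT CCl4 and 2.31, 0.0819, 0.0769 and 0.166 in WT mineral oil libraries. All ΔEGFR CCl4 libraries exceeded all ΔEGFR mineral oil libraries, whereas WT mineral oil replicate 1 exceeded every WT CCl4 library.

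Mmp15, the second membrane-type Mmp, had a negative fold change in WT that was not called. It had 40.18, 54.86, 27.36 and 17.77 TPM in ΔEGFR CCl4 and 27.99, 37.60, 37.41 and 32.26 TPM in ΔEGFR mineral oil libraries. It had 21.75, 18.31 and 13.43 TPM in WT CCl4 and 15.01, 30.87, 21.11 and 47.37 TPM in WT mineral oil libraries. The groups overlapped in both genotypes. The log2 fold change was -0.56 ± 0.34 (adjusted p = 0.322) in ΔEGFR and -1.15 ± 0.38 (adjusted p = 0.0617) in WT. Without WT mineral oil replicate 1 the WT value was -1.37 ± 0.34 (adjusted p = 0.0139), and DESeq2 called it lower in WT with all libraries.

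Mmp19, the member of highest mean level, was called in neither genotype. It had 44.30, 43.69, 45.95 and 49.13 TPM in ΔEGFR CCl4 and 28.62, 33.76, 46.28 and 29.88 TPM in ΔEGFR mineral oil libraries. It had 50.09, 47.92 and 59.88 TPM in WT CCl4 and 20.78, 38.12, 32.48 and 33.59 TPM in WT mineral oil libraries. On the TPM scale every WT CCl4 library was above every WT mineral oil library, and the ΔEGFR groups overlapped. In TMM-scaled CPM the groups overlapped in both genotypes. The fitted log2 fold change was -0.10 ± 0.20 (edgeR adjusted p = 0.782) in ΔEGFR, where its sign turned without scaling factors. In WT it was 0.22 ± 0.22 (adjusted p = 0.537), and Mmp19 was called higher there without them. Mmp19 exons share 789 bases with Tmem198b on the other strand, so part of its level could not be assigned for certain.

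Mmp23, a membrane-anchored Mmp without the hemopexin domain, had 1.15, 3.07, 0.57 and 1.23 TPM in ΔEGFR CCl4 and 0.31, 0.43, 0.36 and 0.25 TPM in ΔEGFR mineral oil libraries. It had 1.31, 1.43 and 1.13 TPM in WT CCl4 and 0.36, 0.17, 0.09 and 0.18 TPM in WT mineral oil libraries. On the TPM scale the CCl4 and oil libraries were apart in both genotypes, but in TMM-scaled CPM they overlapped in ΔEGFR. The fitted log2 change was 1.34 ± 0.45 (adjusted p = 0.0975) in ΔEGFR and 2.06 ± 0.49 (adjusted p = 0.0185) in WT. Leaving out mineral oil replicate 2 or 3, or CCl4 replicate 2, ended the WT call, with adjusted p from 0.00761 to 0.0558.

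Mmp9, gelatinase B, depended on a single library. It had 2.04, 5.87, 9.66 and 5.21 TPM in ΔEGFR CCl4 and 3.93, 2.20, 7.66 and 0.11 TPM in ΔEGFR mineral oil libraries. It had 6.48, 15.17 and 9.98 TPM in WT CCl4 and 112.95, 0.19, 0.15 and 2.13 TPM in WT mineral oil libraries. WT mineral oil replicate 1 was far above every other library, and the other 3 WT mineral oil libraries were below every WT CCl4 library. The log2 fold change was 0.20 ± 1.54 (adjusted p = 0.949) in ΔEGFR and -1.87 ± 1.76 (adjusted p = 0.516) in WT. Without that library it was 3.24 ± 1.26 (adjusted p = 0.0706) in WT, so its sign turned.

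Mmp8 (neutrophil collagenase) and Mmp25 (leukolysin, a neutrophil membrane Mmp) were singled out after their values were seen, because they too were highest in that library. Mmp8 had 49.98 TPM and Mmp25 4.81 TPM in WT mineral oil replicate 1, and at most 0.67 and 0.09 TPM in the other WT mineral oil libraries. Neither was called in WT with all libraries (adjusted p = 0.613 and 0.634, edgeR). Without replicate 1 both were called higher with CCl4, Mmp8 by 4.14 ± 1.40 (adjusted p = 0.0437) and Mmp25 by 3.79 ± 1.27 (adjusted p = 0.0422) on the log2 scale. The summed level of 10 neutrophil markers was 5378.1 TPM in that library, with S100a8 at 1669.26 and S100a9 at 2743.41 TPM, and at most 83.0 TPM in the other WT mineral oil libraries. The markers did not all run one way there: 6 (S100a8, S100a9, Ly6g, Csf3r, Retnlg and Cxcr2) were above every other library, and 4 genes of granule proteins were below every WT CCl4 library. These 4 were Camp at 2.24, Ngp at 12.92, Ltf at 3.45 and Elane at 0.7 TPM, against at least 9.37, 25.87, 13.5 and 6.02 TPM in WT CCl4 libraries. The summed level of the 10 markers was 93.8 to 670.3 TPM in ΔEGFR CCl4, 5.5 to 311.8 TPM in ΔEGFR mineral oil and 321.1 to 1325.7 TPM in WT CCl4 libraries. Across all 15 libraries Mmp8, Mmp9 and Mmp25 together were highest where these markers were highest, 167.74 TPM, and lowest where they were lowest, 0.13 TPM; the part of neutrophil RNA in these values was not tested. The same library had the highest sum of its group for every other non-hepatocyte marker list as well, endothelial (421.3 TPM, next 125.4), macrophage (2023.1 TPM, next 1117.8), stellate cell and myofibroblast (169.4 TPM, next 111.0), T and NK cell (171.8 TPM), B cell (97.8 TPM) and cholangiocyte (66.7 TPM). It had the lowest hepatocyte sum, 58891.4 TPM. Its endothelial sum was above every WT CCl4 library (138.2 to 288.5 TPM), as were its Timp3 and Adamts1 levels, and the part of endothelial RNA in those levels was not tested.

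**Figure D4:**
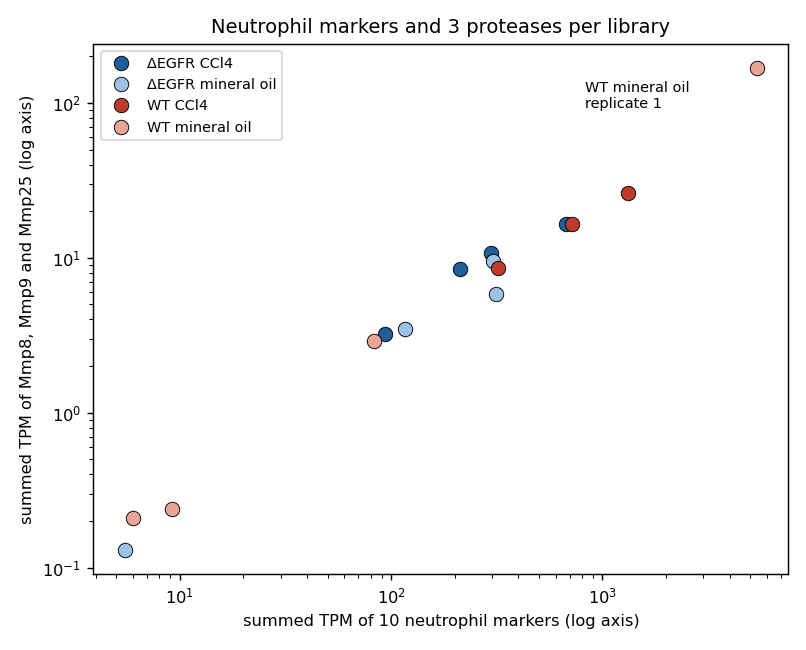
Summed TPM of Mmp8, Mmp9 and Mmp25 (y axis, log) against the summed TPM of 10 neutrophil markers (x axis, log), 1 point per library, coloured by group. WT mineral oil replicate 1 lies at 5378.1 and 167.74 TPM, and the lowest point, ΔEGFR mineral oil replicate 4, at 5.5 and 0.13 TPM.

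None of the 13 Adamts genes tested was called in either genotype, yet all 13 had a positive fold change in ΔEGFR and 9 did in WT. At an unadjusted p under 0.05 there were 2 in ΔEGFR and 3 in WT, beside 24.7% and 28.9% of all genes, and DESeq2 called 2 in each, beside 13.4% and 20.2% of all genes. The median was 1.21 on the log2 scale in ΔEGFR, from 0.10 to 3.25, and 0.30 in WT, from -0.79 to 3.22. Without WT mineral oil replicate 1, all 13 were positive in WT, 4 were called higher, beside 14.5% of all genes in that fit, and the median was 2.01, beside 0.04 for all genes. Adamts1, which cuts proteoglycans such as versican, had 4.91, 8.72, 2.82 and 2.61 TPM in ΔEGFR CCl4 and 1.47, 3.49, 1.47 and 0.78 TPM in ΔEGFR mineral oil libraries. It had 7.45, 2.19 and 6.59 TPM in WT CCl4 and 17.06, 0.74, 0.73 and 2.24 TPM in WT mineral oil libraries. Replicate 1 was again the highest of all. Fitted over all libraries, the log2 fold change was 0.99 ± 0.87 (adjusted p = 0.501) in ΔEGFR and -0.26 ± 0.93 (adjusted p = 0.876) in WT, and 1.79 ± 0.62 (adjusted p = 0.0487) in WT without that library.

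Adamts2, which removes the amino-terminal propeptide of fibrillar procollagens, had 1.18, 3.45, 0.56 and 1.14 TPM in ΔEGFR CCl4 and 0.37, 0.88, 0.10 and 0.06 TPM in ΔEGFR mineral oil libraries. It had 2.0, 0.38 and 0.87 TPM in WT CCl4 and 0.39, 0.06, 0.05 and 0.37 TPM in WT mineral oil libraries. Each genotype had 1 overlapping pair of values, and the log2 fold change was 1.63 ± 0.91 (adjusted p = 0.279) in ΔEGFR and 2.05 ± 0.97 (adjusted p = 0.179) in WT. Adamts7, which cuts cartilage oligomeric matrix protein, had 2.7, 4.0, 4.07 and 3.98 TPM in ΔEGFR CCl4 and 1.67, 2.86, 2.42 and 2.29 TPM in ΔEGFR mineral oil libraries. It had 4.38, 4.07 and 2.56 TPM in WT CCl4 and 2.93, 1.90, 1.59 and 3.64 TPM in WT mineral oil libraries. These values lay within a narrow range, with log2 fold changes of 0.11 ± 0.26 (adjusted p = 0.827) in ΔEGFR and 0.20 ± 0.28 (adjusted p = 0.681) in WT. Adamts13, the von Willebrand factor protease made by stellate cells, had 0.65, 1.49, 0.34 and 0.49 TPM in ΔEGFR CCl4 and 0.50, 1.0, 0.05 and 0.17 TPM in ΔEGFR mineral oil libraries. It had 1.24, 0.05 and 0.49 TPM in WT CCl4 and 0.99, 0.20, 0.11 and 0.70 TPM in WT mineral oil libraries, so low and high libraries occurred in all groups. Its log2 fold change was 0.10 ± 0.96 (adjusted p = 0.96) in ΔEGFR and -0.15 ± 1.05 (adjusted p = 0.94) in WT.

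Among the Adamts-like genes, Adamtsl5 rose in WT. It had 0.70, 1.86, 1.64 and 1.03 TPM in ΔEGFR CCl4 and 0.33, 0.15, 0.34 and 0.15 TPM in ΔEGFR mineral oil libraries. It had 1.09, 1.77 and 3.14 TPM in WT CCl4 and 0.16, 0.71, 0.16 and 0.35 TPM in WT mineral oil libraries. The TPM values were apart in both genotypes, but in TMM-scaled CPM the ΔEGFR groups overlapped. The log2 fold change was 1.55 ± 0.53 (adjusted p = 0.106) in ΔEGFR and 2.0 ± 0.57 (adjusted p = 0.0368) in WT. The WT call was lost in 4 of 7 fits, those lacking mineral oil replicate 3 or 4, or CCl4 replicate 2 or 3 (adjusted p from 0.0331 to 0.131). Adamtsl4, which binds fibrillin-1, had 5.21, 5.58, 1.89 and 1.09 TPM in ΔEGFR CCl4 and 0.79, 1.55, 1.51 and 0.14 TPM in ΔEGFR mineral oil libraries. It had 3.17, 1.56 and 1.74 TPM in WT CCl4 and 1.28, 0.25, 0.14 and 0.97 TPM in WT mineral oil libraries. Only ΔEGFR CCl4 replicate 4 fell among the oil values, and neither log2 fold change was called, 1.36 ± 0.66 (adjusted p = 0.219) in ΔEGFR and 1.26 ± 0.70 (adjusted p = 0.253) in WT. Adamtsl2, a microfibril protein whose human gene is mutated in geleophysic dysplasia, had 1.86, 4.32, 0.69 and 0.93 TPM in ΔEGFR CCl4 and 0.78, 1.19, 0.14 and 0.39 TPM in ΔEGFR mineral oil libraries. It had 1.59, 0.44 and 0.62 TPM in WT CCl4 and 1.04, 0.25, 0.17 and 0.60 TPM in WT mineral oil libraries. The groups overlapped, with log2 fold changes of 1.26 ± 0.90 (adjusted p = 0.398) in ΔEGFR and 0.27 ± 0.96 (adjusted p = 0.875) in WT.

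The lysyl oxidases were the family with the highest median change in WT, 3.88 on the log2 scale, beside 2.03 in ΔEGFR. The order turned without WT mineral oil replicate 1, with 3.84 for the lysyl oxidases and 4.37 for the Timps. All 5 had positive fold changes in both genotypes, except that Loxl4 turned to -0.97 in ΔEGFR without CCl4 replicate 4. Their summed level was 5.15 to 18.56 TPM in ΔEGFR CCl4 and 0.72 to 6.10 TPM in ΔEGFR mineral oil libraries, against 9.08 to 28.97 TPM in WT CCl4 and 0.34 to 2.36 TPM in WT mineral oil libraries. Lox itself, the founding crosslinking enzyme, was the lowest of the family. It had 0.23, 0.73, 0.23 and 0.25 TPM in ΔEGFR CCl4 and 0.01, 0.01, 0.12 and 0.08 TPM in ΔEGFR mineral oil libraries. It had 1.13, 0.51 and 0.58 TPM in WT CCl4 and 0.02, 0.01, 0.02 and 0.08 TPM in WT mineral oil libraries, where it rested on 2 to 15 counts per library. The groups were apart in both genotypes. The log2 fold change was 2.22 ± 0.79 (adjusted p = 0.115) in ΔEGFR and 4.13 ± 0.90 (adjusted p = 0.0132) in WT, and the WT call was kept in all 7 fits without 1 library (adjusted p from 0.0123 to 0.0421).

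Loxl1, best known for elastic fibre upkeep, had 1.12, 3.80, 0.97 and 0.62 TPM in ΔEGFR CCl4 and 0.29, 0.32, 0.23 and 0.13 TPM in ΔEGFR mineral oil libraries. It had 3.15, 1.88 and 1.17 TPM in WT CCl4 and 0.08, 0.03, 0.02 and 0.27 TPM in WT mineral oil libraries. Every CCl4 library was above every oil library. With CCl4 the log2 change was 2.03 ± 0.71 (adjusted p = 0.111) in ΔEGFR and 3.98 ± 0.80 (adjusted p = 0.0102) in WT. The WT call was kept in all 7 fits without 1 library (adjusted p from 0.00725 to 0.033). It was lost when only the compared groups were fitted (edgeR adjusted p = 0.0619).

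Loxl2, a crosslinker of collagen IV that has been a target in liver fibrosis trials, had 2.78, 9.12, 2.14 and 3.42 TPM in ΔEGFR CCl4 and 0.87, 1.19, 0.30 and 0.15 TPM in ΔEGFR mineral oil libraries. It had 8.85, 1.69 and 2.56 TPM in WT CCl4 and 0.79, 0.08, 0.17 and 0.68 TPM in WT mineral oil libraries. The groups did not overlap, and the log2 fold change was 2.03 ± 0.84 (adjusted p = 0.161) in ΔEGFR and 2.95 ± 0.91 (adjusted p = 0.0503) in WT, just above the threshold of 0.05. Loxl4 had 0.88, 1.92, 0.53 and 6.84 TPM in ΔEGFR CCl4 and 0.18, 1.12, 5.03 and 0.20 TPM in ΔEGFR mineral oil libraries. It had 13.95, 3.44 and 2.89 TPM in WT CCl4 and 0.39, 0.16, 0.07 and 0.77 TPM in WT mineral oil libraries. The groups overlapped in ΔEGFR and not in WT, with log2 fold changes of 0.47 ± 1.06 (adjusted p = 0.813) in ΔEGFR and 3.88 ± 1.23 (adjusted p = 0.0543) in WT.

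The WT changes were also read within the lower depth range, which holds 2 WT CCl4 and 3 WT mineral oil libraries. There 9 members were called, 6 of them among the 9 above: Lox, Loxl1, Mmp14, Mmp23, Timp1 and Timp2. The other 3 were Adamts10, Loxl2 and Loxl3. Each was also called on leaving out WT mineral oil replicate 1 alone (edgeR adjusted p = 0.011, 0.0278 and 0.0138). That library is in the higher range, so its absence and the lower depth cannot be told apart in this fit. The higher range holds 1 library of each WT group, and 3 ΔEGFR CCl4 and 4 ΔEGFR mineral oil libraries, so no ΔEGFR fold change could be had within the lower range. The ΔEGFR libraries of the higher range are those left without CCl4 replicate 3, where 0 members were called and Mmp2 had a log2 fold change of 2.97 (adjusted p = 0.076). With the depth range as a term over all libraries, 2 members were called in ΔEGFR (Mmp2 and Timp2) and 9 in WT, 8 of them shared with the 9 above. The share of all genes called is not given for the fits of this paragraph, so their counts are a description only.

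The genotype was compared within each treatment. Under CCl4, 0 of 42 members were called between ΔEGFR and WT by edgeR, against 0.0% of all genes, and 0 of 42 by DESeq2, against 0.0111%. The members at an unadjusted p under 0.05 were Mmp15 and Mmp7, 2 of 42, against 2.29% of all genes. Mmp15 was 0.89 ± 0.37 higher in ΔEGFR on the log2 scale, with an adjusted p of 1.0. Mmp13 was the 1 member for which every ΔEGFR CCl4 library, at most 4.85 TPM, lay below every WT CCl4 library in scaled CPM, and 0 lay above, against 2.38% and 2.68% of all genes. Its TPM values overlapped slightly, since the lowest WT CCl4 library had 4.69 TPM, and its log2 difference was -2.17 ± 1.22 (adjusted p = 1.0). All 5 lysyl oxidases had negative log2 differences under CCl4, from -1.38 for Loxl4 to -0.16 for Loxl2, none called.

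In mineral oil, 0 of 42 members were called between ΔEGFR and WT by edgeR, against 0.0% of all genes, and 0 of 42 by DESeq2, against 0.0%. At an unadjusted p under 0.05 there were 3 of 42, Adamts15, Mmp16 and Mmp24, against 6.66% of all genes. Timp1 was the 1 member with every ΔEGFR mineral oil library, 0.77 to 1.49 TPM, above every WT mineral oil library, 0.00 to 0.74 TPM, and 0 had every one below, against 1.44% and 1.29% of all genes. Its log2 difference was 1.92 ± 0.90 (adjusted p = 0.713), and a single 0 count and 3 shallower libraries stand on the WT side. When WT mineral oil replicate 1 was left out, 34 of 40 members were positive (median 0.85, beside 0.05 for all genes) and 0 called, against 0.0% of all genes, where with it 22 of 42 were positive (median 0.07). In mineral oil all ΔEGFR libraries were in the higher depth range and 3 of 4 WT libraries in the lower one, so depth and genotype cannot be told apart there.

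Whether CCl4 acted differently in the genotypes was tested as an interaction, the ΔEGFR log2 fold change minus the WT one. Of the 42 members 0 were called by edgeR, against 0.0% of all genes, and 0 by DESeq2, against 0.0111%, and 1 had an unadjusted p under 0.05, against 3.16% of all genes. That member was Mmp14, with -1.11 ± 0.47 (adjusted p = 1.0). The interaction was -2.41 ± 1.26 for Timp1, -3.31 ± 1.69 for Mmp13, -1.95 ± 1.02 for Loxl1, -1.91 ± 1.14 for Lox and -3.41 ± 1.58 for Loxl4, each with an adjusted p of 1.0. It was 0.09 ± 1.10 for Timp2 and 0.31 ± 1.0 for Mmp2. All 5 lysyl oxidases were negative, from -3.41 to -0.04, and over all 42 members 23 were positive and 19 negative, with a median of 0.12 beside 0.03 for all genes. The signs shifted on leaving out WT mineral oil replicate 1: 10 of 40 members tested were positive and 30 negative, with a median of -0.76 beside -0.06 for all genes, and again 0 were called, against 0.0% of all genes. In that fit Timp2 turned to -1.46 ± 0.77 (adjusted p = 0.92), all 3 Timps were negative, from -2.66 to -0.59, and the lysyl oxidases ran from -3.45 to -1.15. Standard errors of this size leave room for changes of either sign for most members, so neither a difference nor a likeness between genotypes was shown.

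Other genes of matrix turnover give the setting. Of 28 tested substrates and organisers of these proteins, 6 rose in ΔEGFR with CCl4 and 11 in WT, and 0 fell in either. The counts of this and the following lists stand beside 1.77% of all genes called higher and 2.38% lower in ΔEGFR, and 5.31% and 7.2% in WT. Examples are Vwf, the Adamts13 substrate, with 1.34 ± 0.425 TPM in ΔEGFR CCl4 and 0.19 ± 0.156 TPM in ΔEGFR mineral oil libraries (SD, n = 4 each; log2 fold change 2.81, edgeR adjusted p = 0.0211), and Ltbp3, a latent TGF-beta binding protein, with 11.1 ± 6.61 TPM in WT CCl4 (n = 3) and 0.505 ± 0.439 TPM in WT mineral oil libraries (n = 4; log2 fold change 4.03, adjusted p = 0.00718). Among 14 activators of proenzymes, 0 rose and 1 fell in ΔEGFR, while 2 rose and 5 fell in WT. Plau and Plat, the plasminogen activators, rose in WT by 4.99 ± 1.09 (edgeR adjusted p = 0.0136) and 5.58 ± 1.09 (adjusted p = 0.00913) on the log2 scale. The WT CCl4 libraries were uneven for both. Plau had 33.8 ± 41.0 TPM (mean and SD) in them and 0.703 ± 0.742 TPM in WT mineral oil libraries. Plat had 2.51 ± 2.21 and 0.0375 ± 0.0222 TPM. Klkb1, plasma prekallikrein from hepatocytes, fell in both, to 34.4 ± 4.02 TPM in ΔEGFR CCl4 against 56.3 ± 23.8 TPM in ΔEGFR mineral oil libraries, and to 28.9 ± 5.36 TPM in WT CCl4 against 68.0 ± 10.1 TPM in WT mineral oil libraries (edgeR adjusted p = 0.038 and 0.00914).

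Among 19 other matrix proteases, 4 rose and 0 fell in ΔEGFR, and 6 rose and 1 fell in WT. Ctsk, the collagen-cutting cathepsin K, rose by 4.21 ± 0.77 (adjusted p = 0.0178) in ΔEGFR and 4.90 ± 0.81 (adjusted p = 0.00536) in WT. Htra1, a secreted serine protease, rose by 3.54 ± 0.60 (adjusted p = 0.0133) in ΔEGFR and 4.12 ± 0.64 (adjusted p = 0.00416) in WT. Of 21 other genes of collagen processing and crosslinking, 0 were called in ΔEGFR by edgeR (7 at an unadjusted p under 0.05, and 5 called higher by DESeq2), while 6 rose and 1 fell in WT, among them Plod3, a lysyl hydroxylase (0.78 ± 0.14, adjusted p = 0.00638), and Tgm2, a transglutaminase (1.10 ± 0.28, adjusted p = 0.0249). Of 12 other protease inhibitors 0 were called in ΔEGFR by edgeR (2 at an unadjusted p under 0.05, and 1 called higher by DESeq2), and in WT Cst3 rose by 0.81 ± 0.19 (adjusted p = 0.0174) and Serpine2 fell by 3.73 ± 0.96 (adjusted p = 0.0255) on the log2 scale.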

How the data were processed

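RSEM tables of 15 libraries of RNA from mouse hepatocytes were used. Library construction used a strand-marking mRNA kit, per the labels' protocols. STAR 2.7.8a, RSEM 1.3.0 and GRCm39 are named in the submitters' processing notes. Which annotation release and strand setting were used is not given in the sources used here. The deposited files hold expected counts and TPM per gene, both made by the authors with RSEM. Symbols were joined by Ensembl ID from GENCODE M21 and named 52029 of 56953 genes (91.4%).

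Expected counts were rounded and fitted in R 4.3.3 with edgeR 4.0.16 (quasi-likelihood, TMM factors, filterByExpr with a minimum count of 10 and total of 15), with 1 mean for each of the 4 groups over all 15 libraries, which share 1 estimate of the spread (biological coefficient of variation 50.9%). P-values were adjusted over all 17975 genes tested in each of 5 comparisons. Levels are TPM. Two-sided tests were used throughout. The fit was also run on simulated counts, whose outcome is not given here. No simulated library was made to stand apart, so that run does not test the effect of one such as WT mineral oil replicate 1. Replicates were numbered in accession order and pair nothing.

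Alternatives were DESeq2 1.42.0, RLE factors, no factors, other filters, fits on the compared groups alone, limma 3.58.1 on log2(TPM + 1) and log2(TPM + 0.1), and leaving out each library; the depth range as a term and the lower depth range alone were added after seeing the data. The members and lists were chosen with earlier results of these data known. Members given by library were those called in any comparison, 15 best known members and the 2 highest of each family by mean TPM, 21 in all. Annotated exons of 12 of the 42 tested members, 5 of the 21, overlap exons of another gene (GENCODE M21): Adamts7, Lox, Loxl2, Mmp19 and Timp3.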

Additional observations from a re-analysis of the deposited data

Results flagged for a closer look

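In 11 of 78 groups of 4 libraries examined (the 21 members described by library and the family sums), the highest or lowest library stood apart from the other 3 beyond Dixon's 95% critical value. Chance would give about 1 group in 20 for normal values and independent groups. Linear TPM was used and the family sums repeat members, so 11 of 78 was not tested against chance. Of these, 5 came from WT mineral oil replicate 1, where Mmp9 had 112.95 TPM (the next library 2.13), Timp2 24.23 TPM (next 4.34), Adamts1 17.06 TPM (next 2.24), Timp3 15.74 TPM (next 2.43) and the Timp family in sum 40.44 TPM (next 7.54). In ΔEGFR CCl4 replicate 2, Lox had 0.73 TPM (next 0.25), Loxl1 3.80 TPM (next 1.12) and the Adamts family in sum 30.59 TPM (next 15.97). In WT mineral oil replicate 4, Mmp13 had 0.69 TPM (next 0.09) and Lox 0.08 TPM (next 0.02). In ΔEGFR CCl4 replicate 1, Adamts7 was the low one at 2.7 TPM (next 3.98). No difference of the CCl4 effect between genotypes passed the test for any member.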

How the results depend on the processing

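No paired analysis was possible because the labels number no replicates across groups. The count of members called with CCl4 in WT, 9, was 15 with DESeq2, 17 with limma on either TPM scale, 1 (Lox) with only the compared groups fitted, and 3 to 18 with each library left out. It was 10 with RLE factors, 13 with no factors, 7 with no low-count filter and 11 with at least 1 CPM in 3 libraries. The count in ΔEGFR, 1, was 10 with DESeq2, 5 with no factors, 0 with no low-count filter, 3 with only the compared groups, 11 and 14 with limma on log2(TPM + 1) and log2(TPM + 0.1), 2 with the depth range as a term, and 0 with any library left out. DESeq2 called 20.2% of all genes in WT and 13.4% in ΔEGFR. No share of all genes stands here beside the counts of the other alternatives. The median log2 change of all genes in WT was -0.03 in the main fit. With limma on log2(TPM + 1) and log2(TPM + 0.1) it was 0.28 and 0.48, and with no factors 0.4. In ΔEGFR it was -0.02, and 0.31, 0.48 and 0.44 in these fits. A shift of all genes thus enters their counts. The counts by genotype and for the interaction were 0 under every alternative run. In WT, log2 fold changes that turned sign were Mmp9 (1.23 and 2.28 with limma, 3.39 in the lower depth range), Timp3 (0.77 and 1.25, 0.60 with depth as a term, 1.80), Adamts1 (0.69 and 1.08, 0.61, 1.76) and Adamts13 (0.12 with no factors, 0.06 and 0.02, 0.06, 0.67). In ΔEGFR, Mmp19 turned to 0.35 with no factors and to 0.42 and 0.43 with limma. Over the fits that left out 1 library, the sign also turned in WT for Mmp9 (-2.30 to 3.24), Timp3 (-0.79 to 1.66), Adamts1 (-0.71 to 1.79), Adamts13 (-1.40 to 0.46) and Adamtsl2 (-0.73 to 0.85), and in ΔEGFR for Mmp9 (-0.26 to 0.67), Adamts13 (-0.36 to 0.71) and Loxl4 (-0.97 to 1.92). The Timp2 interaction turned to -1.46 without WT mineral oil replicate 1. WT mineral oil replicate 1 had the highest level of its group for Mmp9, Timp2, Timp3, Adamts1 and Adamts13. The cause of the sign turns was not tested. Members resting on few counts, such as Lox in oil, are limited by depth.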

Other observations

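The balance of the 2 membrane-type Mmps was looked at after their values were seen, and was not tested. Mmp14 over Mmp15, as a ratio of TPM, was 1.13, 1.01, 1.21 and 2.06 in ΔEGFR CCl4 and 0.675, 0.744, 1.06 and 0.316 in ΔEGFR mineral oil libraries. It was 3.58, 2.61 and 4.03 in WT CCl4 and 0.70, 0.455, 0.69 and 0.553 in WT mineral oil libraries. Every WT CCl4 library was above every other library of the series, including WT mineral oil replicate 1, which stood apart for other members but had a ratio in the range of its group.

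Mmp27 was also singled out after its values were seen. It had 3.38, 9.92, 5.23 and 2.76 TPM in ΔEGFR CCl4 and 0.47, 0.52, 0.86 and 0.00 TPM in ΔEGFR mineral oil libraries. It had 2.17, 5.04 and 8.14 TPM in WT CCl4 and 1.08, 0.24, 0.03 and 0.98 TPM in WT mineral oil libraries. CCl4 and oil libraries did not overlap in either genotype, and the log2 fold change was 2.96 ± 1.06 (edgeR adjusted p = 0.116) in ΔEGFR and 2.62 ± 1.09 (adjusted p = 0.132) in WT.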
